A study of Mus musculus with 17 samples.

Results

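Loss of Pelo was compared with its controls over the Lrig1 and Lgr6 populations of mouse epidermal stem cells as 1 comparison. All libraries of these populations were used, 11 of the 17 in the series, and the 6 Lgr5 libraries were left out of the fit. The Pelo -/- groups held 3 libraries of Lrig1 and 3 of Lgr6 cells, and the WT groups held 2 of Lrig1 and 3 of Lgr6 cells. Every library was made from 1000 GFP-positive cells sorted from the epidermis of C57BL/6 mice aged 3 months. The Pelo -/- mice carried a floxed pair of Pelo alleles (Pelo fl/fl), and the mice labelled WT were Pelo fl/+, so the controls had a floxed allele beside an intact one. All mice carried the EGFP-CreERT2 cassette at Lrig1 or at Lgr6 and received 4-OHT, the ligand that lets CreERT2 act, and this holds for the controls too. The same cassette gave the sort its GFP, which restricts deletion to cells in which that locus is expressed. The labels give no time between treatment and sorting.

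Pelo encodes Pelota, which together with the GTPase Hbs1l enters the empty decoding site of a ribosome stalled on messenger RNA, so that Abce1 can split the ribosome into its subunits. Related pathways recognise collided ribosomes, degrade the stalled peptide and destroy the message. Lrig1 marks stem cells of the upper hair follicle next to the sebaceous gland and Lgr6 marks stem cells of the isthmus, and both feed the epidermis and its glands. Whether these neighbouring populations share a response to loss of Pelo was asked by fitting 1 genotype difference to both, with population as a covariate. A log2 fold change below is Pelo -/- over WT from that fit, with its standard error, and levels are CPM, which are counts per fixed library size with TMM scaling between libraries.

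Total counts lay between 13333497 and 28098841 per library, and replicates of a group had rank correlations of 0.902 to 0.916. Genes of the mitochondrial genome took 4.66% to 7.68% of the counts. The keratinocyte genes Krt5 and Krt14 were read in every library, Krt5 at 4983 to 7234 CPM in Pelo -/- and 3735 to 5093 CPM in WT libraries and Krt14 at 5527 to 9371 CPM in Pelo -/- and 3676 to 7647 CPM in WT libraries. Markers of other cell types differed in level. Cd207 of Langerhans cells was at 0.0972 to 2.097 CPM in Pelo -/- and 0.173 to 4.07 CPM in WT libraries. The leukocyte gene Ptprc was at 0.1104 to 1.31 CPM in Pelo -/- and 0.345 to 2.41 CPM in WT libraries. Cd74, on the same marker list, was higher, at 26.98 to 94.2 CPM in Pelo -/- and 27.8 to 263 CPM in WT libraries. That list, which also holds Epcam, summed to 130.2 to 225 CPM in Pelo -/- and 147 to 367 CPM in WT libraries. T cell markers summed to 48.0 to 125 CPM in Pelo -/- and 51.1 to 126 CPM in WT libraries. WT Lgr6 replicate 2 stood apart. Genes with at least 1 count were most numerous there, 38859 against 27824 to 36809 elsewhere, and the wound and stress keratinocyte genes averaged 3.33 log2 CPM against 1.17 to 2.24.

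Pelo counts were low and did not pass the test. Pelo (chr13:115088355-115090186, minus strand, GRCm38) had 3.195, 0.441 and 0.762 CPM in Pelo -/- Lrig1 and 2.58, 3.83 and 3.84 in Pelo -/- Lgr6, against 4.75 and 3.32 in WT Lrig1 and 3.27, 3.902 and 1.71 in WT Lgr6. In Lrig1 cells all Pelo -/- libraries were below both WT libraries, 2 of them under 1 CPM, while every Pelo -/- Lgr6 library was inside the WT Lgr6 range. The common log2 fold change was -0.55 ± 0.62 (95% interval -1.87 to 0.78, edgeR adjusted p = 0.996). It was -0.89 without Pelo -/- Lrig1 replicate 1 and -0.27 without Pelo -/- Lrig1 replicate 2. Its exons share 739 bp with the predicted gene Gm49395 on the same strand and 468 bp with Gm10734 on the other, and Pelo lies inside Itga1. Itga1, an integrin subunit gene that was low throughout, had a common log2 fold change of -0.96 ± 1.51 (edgeR adjusted p = 0.996). Its populations had opposite signs, with 1.89 in Lrig1 and -2.85 in Lgr6, and the mean over all Pelo -/- libraries was 0.984 CPM against 0.918 CPM in WT. The labels do not describe the deleted stretch of the gene, and counts over the whole gene are therefore no measure of how complete recombination was. The sort gene Lrig1 had 31.6, 6.79 and 10.3 CPM in Pelo -/- Lrig1 and 32.7, 45.6 and 43.95 in Pelo -/- Lgr6, against 30.8 and 37.2 in WT Lrig1 and 36.9, 32.8 and 50.8 in WT Lgr6 (-0.47 ± 0.35, edgeR adjusted p = 0.996). Replicates 2 and 3 of Pelo -/- Lrig1 were below every other library for Lrig1, and the fold change was -0.76 without replicate 1 and -0.26 without replicate 2 of that group. Lgr6, the other sort gene, was at 70.7 to 149.9 CPM in Pelo -/- and 52.03 to 167 CPM in WT libraries (0.20 ± 0.25, edgeR adjusted p = 0.996).

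No gene passed the test for a difference shared by both populations. edgeR's quasi-likelihood test called 0 of 21141 genes (0%) at an adjusted p under 0.05, and the smallest adjusted p was 0.687. At an unadjusted p under 0.05 there were 1032 genes (4.88%), 494 above WT (2.34%) and 538 below (2.54%), where an even spread of p-values gives 1057. The plot of p-values was flat from end to end. limma-voom also called 0, with 1095 genes at an unadjusted p under 0.05, while DESeq2 called 55 (0.26%), 31 above WT and 24 below, with 1524 at an unadjusted p under 0.05. DESeq2 gave no adjusted p for 3124 of the 21141 genes, which could therefore not be called, and the 0.26% is of all 21141. Of the 55 genes, 19 had a mean log2 CPM of at least 3. The count stayed at 0 in edgeR without each of the 11 libraries in turn, WT Lgr6 replicate 2 among them.

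**Figure D1:**
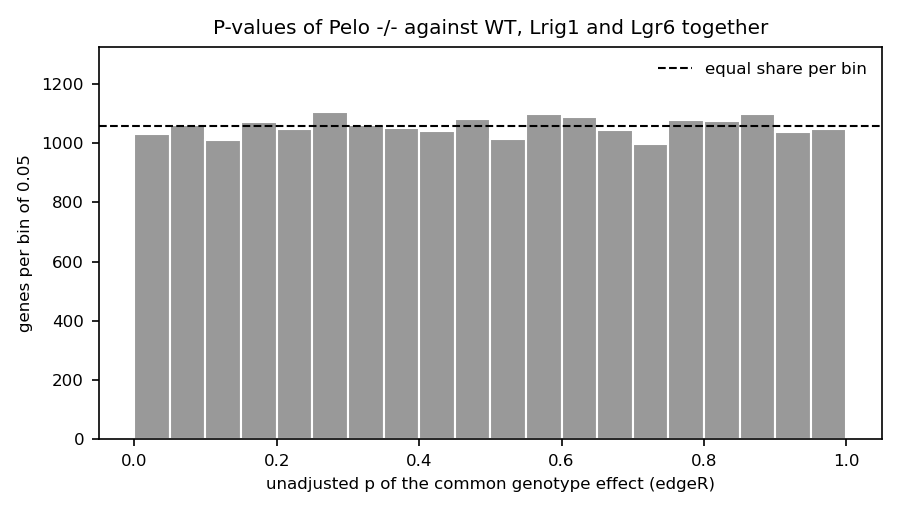
Number of genes (vertical axis) in each 0.05-wide bin of the unadjusted p of the common genotype difference (horizontal axis), for 21141 genes in edgeR; the dashed line is an equal share of 1057 per bin. The first bin holds 1032 genes and the bins range from 997 to 1104, with no excess at small p.

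The libraries bound how large a shared difference could have been. Among the 9262 genes at a mean log2 CPM of 3 or more the median standard error was 0.27, and the median 95% interval reached 0.57 on the log2 scale to each side, a factor of 1.49. For 6758 of them (73.0%) the whole interval lay within a factor of 2 of no difference, and for 95 the fitted value itself was beyond it. For genes under a log2 CPM of 0, of which there were 6566, the median interval reached a factor of 3.64 to each side and 13 had their whole interval within a factor of 2.

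Since no gene was called, 10 genes in each direction are described as values, those with the smallest p among protein-coding genes at a mean log2 CPM of 3 or more and the same sign in both populations. They were picked for their p, so their separation is a description. Across all 21141 genes, the genotypes did not overlap within Lrig1 and within Lgr6, in the same direction, for 224 genes (1.06%), 150 above WT (0.71%) and 74 below (0.35%). Over all 6 Pelo -/- against all 5 WT libraries there was no overlap for 56 genes above WT (0.265%) and 30 below (0.142%). At a mean log2 CPM of at least 3 the genes separate within both populations were 127 above and 17 below of 9262, and with RLE scaling 117 and 16. All 10 genes named above WT belong to them, and 3 of the 10 named below.

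Slc19a2, which encodes a thiamine transporter, had the smallest p of the genes above WT. Slc19a2 (chr1:164249046-164265385, plus strand) had 27.5, 32.7 and 37.3 CPM in Pelo -/- Lrig1 and 43.5, 24.8 and 19.98 in Pelo -/- Lgr6, against 10.02 and 13.5 in WT Lrig1 and 11.1, 8.28 and 15.6 in WT Lgr6. The lowest Pelo -/- library was above the highest WT library, and the common log2 fold change was 1.39 ± 0.27 (95% interval 0.81 to 1.97, edgeR adjusted p = 0.687, DESeq2 adjusted p = 0.00134). Uap1, the enzyme that makes UDP-N-acetylglucosamine for protein glycosylation, had 29.5, 26.9 and 35.2 CPM in Pelo -/- Lrig1 and 53.4, 33.7 and 37.6 in Pelo -/- Lgr6, against 15.2 and 17.9 in WT Lrig1 and 15.4, 24.9 and 19.7 in WT Lgr6. Again no library overlapped (0.98 ± 0.22, edgeR adjusted p = 0.803, DESeq2 adjusted p = 0.00297). Sash1, a scaffold protein of signalling, had 21.04, 38.95 and 35.3 CPM in Pelo -/- Lrig1 and 42.9, 34.8 and 30.5 in Pelo -/- Lgr6, against 16.2 and 19.7 in WT Lrig1 and 14.6, 18.6 and 10.8 in WT Lgr6, also without overlap (1.08 ± 0.25, edgeR adjusted p = 0.825, DESeq2 adjusted p = 0.0092).

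The other 7 genes above WT had larger p. Sec24d, a cargo-binding subunit of the COPII coat that buds from the endoplasmic reticulum, was at 26.3, 28.2 and 22.6 CPM in Pelo -/- Lrig1 and 23.3, 26.997 and 45.4 in Pelo -/- Lgr6, against 10.6 and 14.2 in WT Lrig1 and 19.3, 15.8 and 18.1 in WT Lgr6 (0.94 ± 0.24). Its Pelo -/- Lgr6 replicate 3 was well above the other 5 Pelo -/- libraries, and those 5 were still above every WT library. Slc35b3, which carries the sulfate donor PAPS into the Golgi, was at 18.7, 18.2 and 28.9 CPM in Pelo -/- Lrig1 and 18.99, 20.02 and 22.2 in Pelo -/- Lgr6, against 11.4 and 15.4 in WT Lrig1 and 6.58, 9.48 and 9.07 in WT Lgr6 (1.02 ± 0.26), again without overlap. H1f0, a linker histone known from cells that have left the cell cycle, was at 89.2, 76.8 and 84.8 CPM in Pelo -/- Lrig1 and 132, 197 and 129 in Pelo -/- Lgr6, against 57.2 and 64.7 in WT Lrig1 and 72.9, 83.5 and 61.2 in WT Lgr6 (0.80 ± 0.19). Within each population H1f0 did not overlap, but WT Lgr6 replicate 2 reached the Pelo -/- Lrig1 range. Id1, an inhibitor of basic helix-loop-helix factors and a BMP target, was at 27.3, 43.8 and 25.6 CPM in Pelo -/- Lrig1 and 59.1, 33.2 and 83.7 in Pelo -/- Lgr6, against 20.7 and 13.5 in WT Lrig1 and 31.01, 24.3 and 31.5 in WT Lgr6 (0.97 ± 0.26). Nt5dc1 (0.90 ± 0.21), Vopp1 (0.77 ± 0.20) and the intermediate filament family gene Iffo2 (0.69 ± 0.18) complete the list of 10, with Nt5dc1 at 33.5 to 62.6 CPM in Pelo -/- and 19.4 to 29.6 CPM in WT libraries. In edgeR their adjusted p lay between 0.865 and 0.919 for these 7 genes, and DESeq2 called 6 of them, Id1 being the exception (DESeq2 adjusted p = 0.0838).

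Among genes below WT, the retinol dehydrogenase gene Sdr16c5 had the smallest p. Sdr16c5 (chr4:3995936-4019663, minus strand) had 15.8, 11.5 and 6.44 CPM in Pelo -/- Lrig1 and 4.48, 18.3 and 15.7 in Pelo -/- Lgr6, against 34.3 and 67.04 in WT Lrig1 and 63.2, 21.7 and 37.04 in WT Lgr6. All 6 Pelo -/- libraries were below all 5 WT libraries, although WT levels themselves spread widely, and the log2 fold change was -1.89 ± 0.38 (95% interval -2.71 to -1.07, edgeR adjusted p = 0.724, DESeq2 adjusted p = 0.00852). Stard5, which encodes a soluble lipid carrier with a START domain, had 47.5, 45.2 and 49.2 CPM in Pelo -/- Lrig1 and 45.4, 32.1 and 53.05 in Pelo -/- Lgr6, against 73.4 and 80.03 in WT Lrig1 and 92.3, 92.4 and 69.6 in WT Lgr6. No library overlapped (-0.84 ± 0.18, edgeR adjusted p = 0.724, DESeq2 adjusted p = 0.00297). Exons of Stard5 share 1202 bp with Il16 on the opposite strand, and the labels do not say whether counting used strand. Nrbp1, a pseudokinase that acts as an adaptor, had 8.44, 8.28 and 9.76 CPM in Pelo -/- Lrig1 and 9.11, 11.4 and 14.003 in Pelo -/- Lgr6, against 16.1 and 21.2 in WT Lrig1 and 22.4, 28.2 and 16.2 in WT Lgr6 (-1.01 ± 0.26, edgeR adjusted p = 0.919, DESeq2 adjusted p = 0.00379). Its genotypes did not overlap either.

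The other 7 genes below WT overlapped in at least 1 population, and 6 of them are described here. Mphosph6, a cofactor of the nuclear RNA exosome, was at 22.4 to 38.98 CPM in Pelo -/- and 29.03 to 81.1 CPM in WT libraries (-0.85 ± 0.22). Ssr1, a subunit of the translocon-associated complex at the endoplasmic reticulum, was at 139, 225 and 220.5 CPM in Pelo -/- Lrig1 and 127, 128 and 126 in Pelo -/- Lgr6, against 371 and 422 in WT Lrig1 and 186, 125 and 244 in WT Lgr6 (-0.76 ± 0.20). In Lrig1 cells every Pelo -/- library was below both WT libraries for Ssr1. In Lgr6 cells WT Lgr6 replicate 2 was just below the Pelo -/- Lgr6 libraries and the other WT Lgr6 libraries were above them. Cxcl14, a chemokine of keratinocytes, was at 30.3 to 62.1 CPM in Pelo -/- and 44.1 to 93.1 CPM in WT libraries (-0.79 ± 0.23), and Lgals9, the lectin galectin-9, at 13.4 to 91.98 CPM in Pelo -/- and 53.6 to 122 CPM in WT libraries (-1.09 ± 0.32). Tmem106c was at 5.35 to 20.5 CPM in Pelo -/- and 14.9 to 41.3 CPM in WT libraries (-1.09 ± 0.29) and Fam84a at 31.02 to 148 CPM in Pelo -/- and 56.5 to 179 CPM in WT libraries (-0.79 ± 0.26). For all 7 the edgeR adjusted p ran from 0.919 to 0.965, and DESeq2 called none of these 7, with adjusted p from 0.0550 to 0.266. All 20 named genes kept their direction under the 20 other settings tried, which include leaving out each library. Because they were picked for a small p in these same libraries, the kept directions add no separate support.

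**Figure D2:**
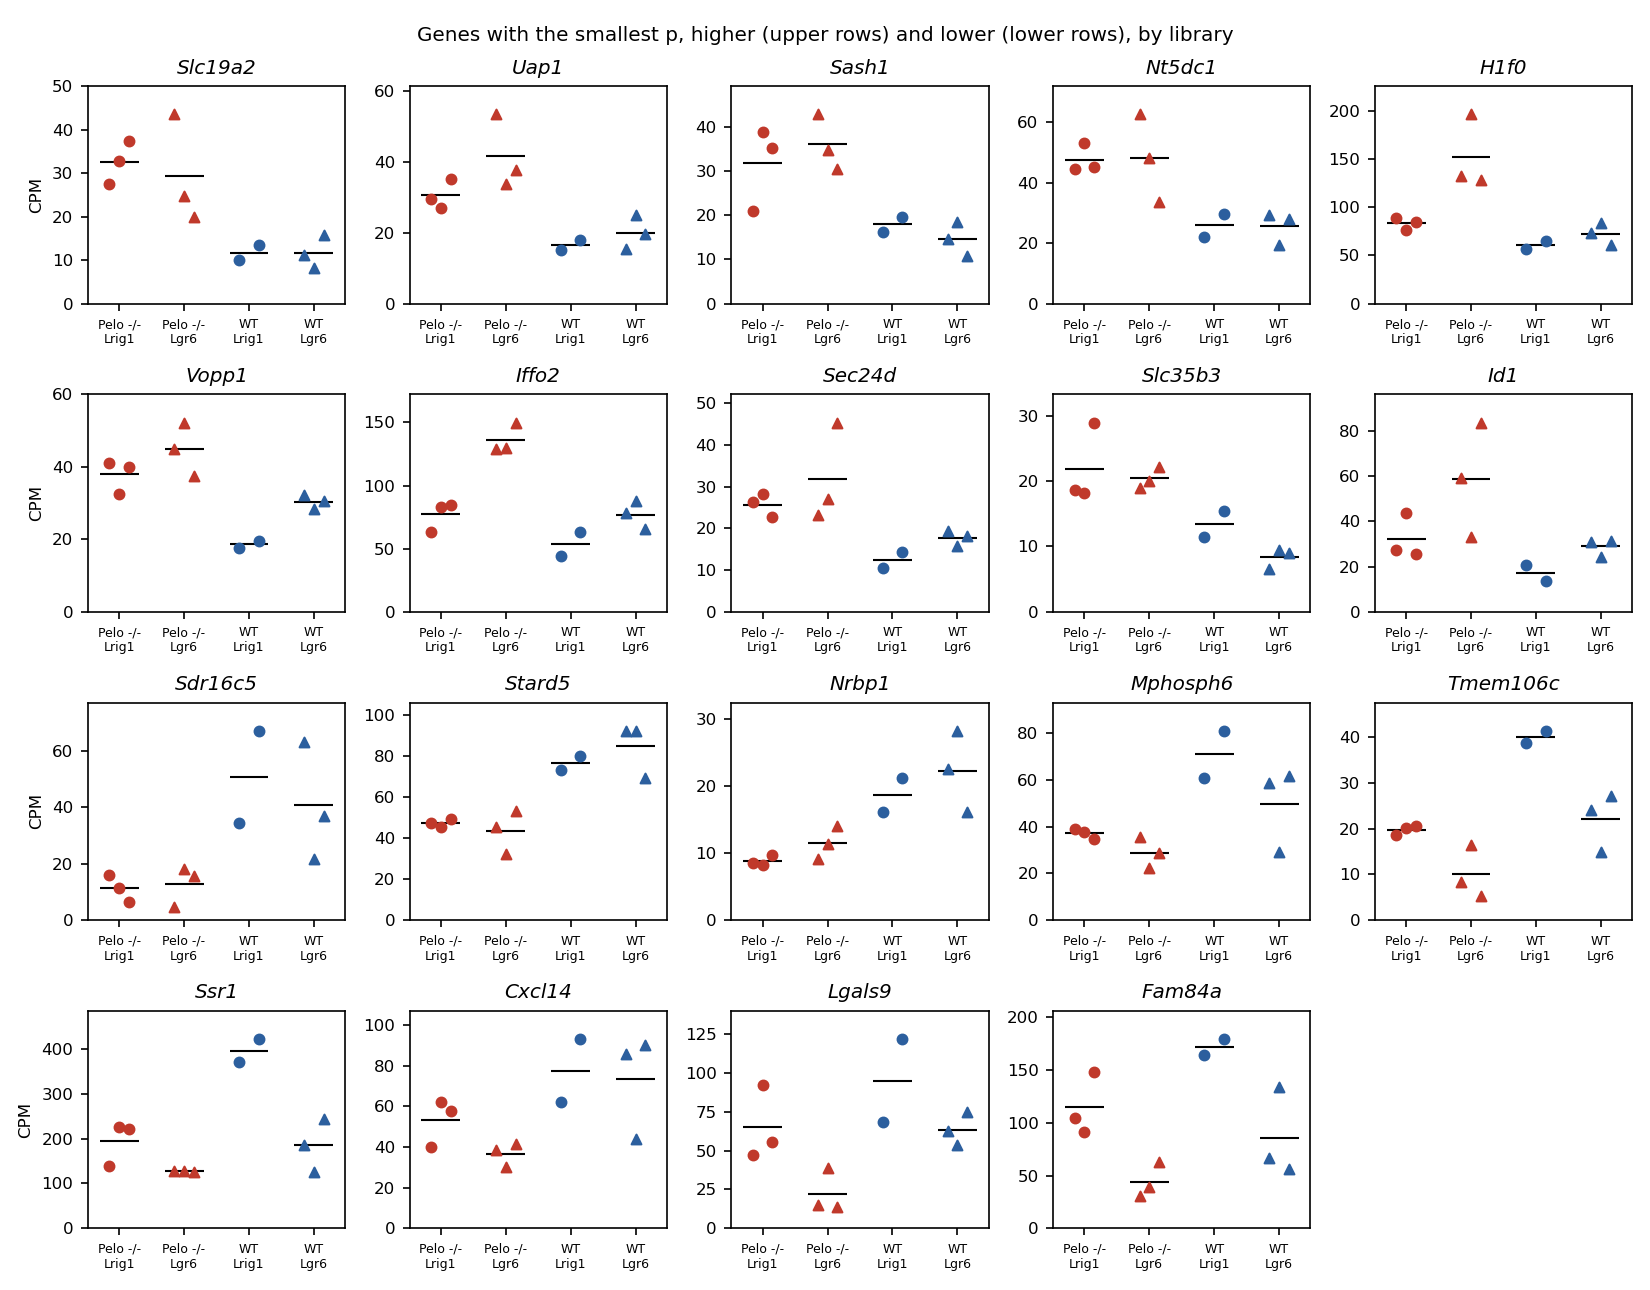
CPM (vertical axes, starting at 0) in each of the 11 libraries for 19 of the 20 genes with the smallest p per direction; red points are Pelo -/- and blue points WT libraries, circles Lrig1 and triangles Lgr6, and the bars are group means. In the upper 2 rows the Pelo -/- points lie above the WT points of their own population, as for Slc19a2, and in the lower 2 rows the groups are separate for Sdr16c5, Stard5 and Nrbp1 and overlap for the other 6.

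Enpp5, a member of the ectonucleotide pyrophosphatase family, fell outside the naming rule by its low level and was chosen after its values were seen. Enpp5 had 0.411, 0.607 and 0.0693 CPM in Pelo -/- Lrig1 and 0.244, 0.6301 and 0.681 in Pelo -/- Lgr6, against 2.35 and 11.1 in WT Lrig1 and 4.69, 3.03 and 9.29 in WT Lgr6. Every Pelo -/- library was below 1 CPM and every WT library above 2 CPM. Its log2 fold change was -3.77 ± 0.69 (edgeR adjusted p = 0.687, DESeq2 adjusted p = 1.59e-06).

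Set against each other, the separate genotype differences of Lrig1 and Lgr6 cells, which share no library, had little in common across genes. Over the 9262 genes at a mean log2 CPM of 3 or more the Spearman correlation was 0.09 and the Pearson correlation 0.09, and 5005 genes (54.0%) had the same sign. Genes are not independent replicates, and in each population the same library enters the values of all genes. Without WT Lgr6 replicate 2 the Spearman correlation was 0.20 and without WT Lgr6 replicate 3 it was -0.07, so its sign turned with single libraries. Over all 21141 genes 51.0% had the same sign.

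**Figure D3:**
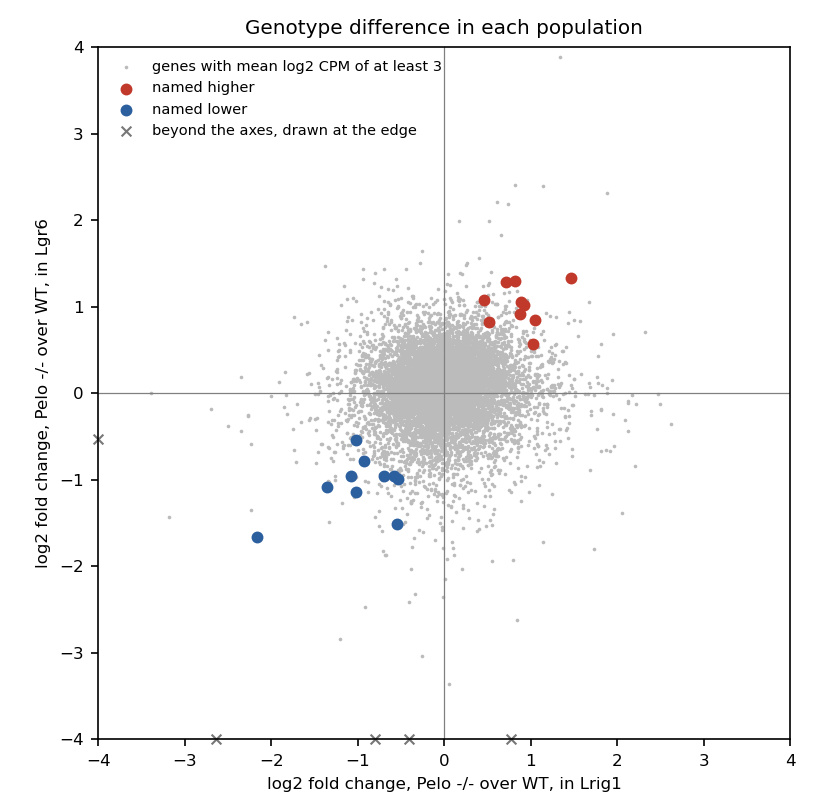
Log2 fold change of Pelo -/- over WT in Lrig1 (horizontal axis) and in Lgr6 (vertical axis), fitted separately, for 9262 genes at a mean log2 CPM of 3 or more; red and blue points are the 20 named genes, and 5 genes beyond 4 on either axis are drawn as crosses at the edge. The cloud is nearly round (Spearman correlation 0.09), and the named genes lie at its upper right and lower left because the rule asks for the same sign.

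A difference of the genotype effect between the populations was tested as an interaction. edgeR called 0 genes (0%), with 1058 at an unadjusted p under 0.05 (5%), limma-voom called 0 and DESeq2 82. The genes with the smallest interaction p are therefore values only. The guanine exchange factor gene Arhgef28 had 46.2, 49.4 and 35.9 CPM in Pelo -/- Lrig1 and 80.3, 80.9 and 86.9 in Pelo -/- Lgr6, against 51.1 and 62.5 in WT Lrig1 and 37.8, 37.3 and 39.01 in WT Lgr6. Its WT libraries of the 2 populations were apart in the opposite order to its Pelo -/- libraries, with effects of -0.37 in Lrig1 and 1.12 in Lgr6 (edgeR adjusted p of the difference = 0.964). Cbr4, a carbonyl reductase, had effects of -1.13 in Lrig1 and 0.84 in Lgr6, and Polr3d, a subunit of RNA polymerase III, of -1.12 in Lrig1 and 1.08 in Lgr6. In the other direction Vsnl1, a neuronal calcium sensor, had effects of 0.03 in Lrig1 and -1.92 in Lgr6, the class I-like gene Mill1 of 0.47 in Lrig1 and -1.19 in Lgr6 and the endocytic adaptor Epn1 of 1.68 in Lrig1 and -0.89 in Lgr6. Arhgef28, Cbr4, Polr3d, Vsnl1 and Epn1 passed an adjusted p of 0.05 in DESeq2 or in edgeR with no filter on low counts. Mill1 passed under no setting.

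Ribosome rescue factors, the partners of Pelo, had 0 of 25 tested members called. In this and the following lists the members with the smallest p or the highest level were fixed by rule, and others are named for their known role and were chosen after their values were seen. Of the 25, 13 had positive and 12 negative fold changes, with a median of 0.02. The median over all genes was -0.04. Of the 25, 1 passed an unadjusted p of 0.05 (4.88% of all genes did). Hbs1l, which enters the ribosome with Pelota, had 51.1, 69.9 and 45.3 CPM in Pelo -/- Lrig1 and 28.7, 27.8 and 59.5 in Pelo -/- Lgr6, against 36.4 and 35.4 in WT Lrig1 and 56.9, 29.3 and 40.5 in WT Lgr6 (0.20 ± 0.27). Abce1, which splits the ribosome, was at 50.6 to 108 CPM in Pelo -/- and 85.9 to 118 CPM in WT libraries (-0.23 ± 0.20). Ascc2, a subunit of the complex that clears collided ribosomes, had the smallest p and was at 17.8, 16.6 and 13.8 CPM in Pelo -/- Lrig1 and 16.8, 21.2 and 22.5 in Pelo -/- Lgr6, against 11.3 and 16.3 in WT Lrig1 and 12.5, 8.68 and 8.72 in WT Lgr6 (0.66 ± 0.27, edgeR adjusted p = 0.991). WT Lrig1 replicate 2 reached the Pelo -/- Lrig1 range for Ascc2. The E3 ligase Ltn1, which tags stalled peptides, had 0.29 ± 0.22, the collision kinase Map3k20 -0.08 ± 0.20, and the ribosomal scaffold Rack1 0.14 ± 0.17 (95% interval -0.21 to 0.50). Among 37 genes of nonsense-mediated and no-go decay 0 were called, 22 were positive and the median was 0.06, with the decapping enzyme Dcp2 at 0.78 ± 0.33 (edgeR adjusted p = 0.996).

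Genes of translation itself had medians near that of all genes. Of 44 initiation and elongation factors 0 were called, 24 were positive and the median was 0.03. For 5 of the 44 the Pelo -/- libraries were above WT within both populations, where 0.71% of all genes and 1.37% of those at a mean log2 CPM of 3 or more were. Eif3a, a core subunit of initiation factor 3, had 351, 395 and 359 CPM in Pelo -/- Lrig1 and 498, 404 and 421 in Pelo -/- Lgr6, against 301 and 332 in WT Lrig1 and 330.1, 274 and 258 in WT Lgr6 (0.44 ± 0.16, edgeR adjusted p = 0.965), and no library overlapped. Eif3f was at 300.3 to 429.8 CPM in Pelo -/- and 227 to 295 CPM in WT libraries (0.37 ± 0.16), likewise without overlap. Eif5b, which joins the subunits, had 0.39 ± 0.16, Eif4b, a helicase cofactor, 0.34 ± 0.15, and the poly(A)-binding protein gene Pabpc1 0.22 ± 0.15. Exons of Eif5b share 1643 bp with Rev1 on the other strand. In the opposite direction Eif5a, which relieves stalling at proline runs, was at 95.01 to 172 CPM in Pelo -/- and 75.4 to 325 CPM in WT libraries (-0.74 ± 0.31), with 2 high WT Lgr6 libraries.

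Of 82 cytosolic ribosomal protein genes 31 were positive and 51 negative, with a median of -0.06, and 1 passed an unadjusted p of 0.05. That gene, Rps19, was at 475, 448 and 426 CPM in Pelo -/- Lrig1 and 361, 323 and 442 in Pelo -/- Lgr6, against 514 and 606 in WT Lrig1 and 366, 767 and 1381 in WT Lgr6 (-0.79 ± 0.29, edgeR adjusted p = 0.965), separate in Lrig1 cells and with 2 high WT Lgr6 libraries. Reads of ribosomal protein genes can be shared with their many processed copies. The list's median turned to 0.06 without WT Lgr6 replicate 3. Ribosome biogenesis had a median of 0.03, 34 positive of 63, and the mTOR pathway, which couples nutrients to translation, 0.06, 25 positive of 40. Flcn, which acts on mTORC1 at the lysosome, had the smallest p of the mTOR list with 23.8, 26.3 and 23.5 CPM in Pelo -/- Lrig1 and 26.2, 20.1 and 20.2 in Pelo -/- Lgr6, against 7.01 and 9.45 in WT Lrig1 and 22.2, 13.7 and 21.1 in WT Lgr6 (0.80 ± 0.30, edgeR adjusted p = 0.973). Its genotypes were apart in Lrig1 cells and overlapped in Lgr6 cells.

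Basal keratinocyte and adhesion genes had the highest median of the 29 process lists. These genes hold basal cells to the basement membrane or define the basal layer. Of 22 tested, 0 were called, 19 had positive and 3 negative fold changes, and the median was 0.35. By population the median was 0.21 in Lrig1 and 0.49 in Lgr6, and 17 of the 22 had the same sign in both. Of all genes 53.8% were negative with a median of -0.04, and of the 9262 genes at a mean log2 CPM of 3 or more, a closer match in level, 45.5% with a median of 0.03. At an unadjusted p of 0.05 there were 5, all positive (22.7%, against 4.88% of all genes and 5.61% at a mean log2 CPM of 3 or more). The mean log2 CPM of the list was 8.56, 8.55 and 8.42 in Pelo -/- Lrig1 and 8.75, 8.45 and 8.72 in Pelo -/- Lgr6 libraries, against 8.43 and 8.13 in WT Lrig1 and 8.15, 8.21 and 8.42 in WT Lgr6 libraries. The Pelo -/- libraries were at the upper end, with replicate 3 of Pelo -/- Lrig1 just under WT Lrig1 replicate 1. The list's median lay between 0.24 and 0.43 under every other setting tried, including the fits without each library. The lists were chosen with earlier results of these data known, so neither this range nor the share at a small p adds separate support.

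Col17a1, the collagen of hemidesmosomes, had 2696, 2502 and 2110.2 CPM in Pelo -/- Lrig1 and 2997, 1999 and 2546 in Pelo -/- Lgr6, against 2066 and 1537 in WT Lrig1 and 1380.3, 1179 and 1754 in WT Lgr6 (0.64 ± 0.19, edgeR adjusted p = 0.938). Within each population the lowest Pelo -/- library was above the highest WT library. Krt5, the type II keratin of the basal layer, had 6417, 4983 and 5184 CPM in Pelo -/- Lrig1 and 7234, 6256 and 6849.7 in Pelo -/- Lgr6, against 4765 and 3842 in WT Lrig1 and 3735, 5093 and 4768 in WT Lgr6 (0.48 ± 0.17, edgeR adjusted p = 0.965), also without overlap within a population. Cd44, a hyaluronan receptor, was at 287 to 389 CPM in Pelo -/- and 238 to 269.7 CPM in WT libraries (0.35 ± 0.15). It was the third of 22 members that did not overlap within either population. Of all genes 0.71% were above WT in this way, and 1.37% of those at a mean log2 CPM of 3 or more. The basement membrane chain gene Lamb3 was at 132 to 223 CPM in Pelo -/- and 107 to 142 CPM in WT libraries (0.60 ± 0.19), and Lama3 had 0.33 ± 0.21. Itgb4 had 0.48 ± 0.18 and its partner Itga6 0.37 ± 0.21, while Krt14, the partner of Krt5, had 0.34 ± 0.21. The transcription factor Trp63 of basal cells had 0.11 ± 0.18, and Sox9, Plec and Sdc1 were negative (-0.43 ± 0.27, -0.14 ± 0.27 and -0.03 ± 0.19).

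**Figure D4:**
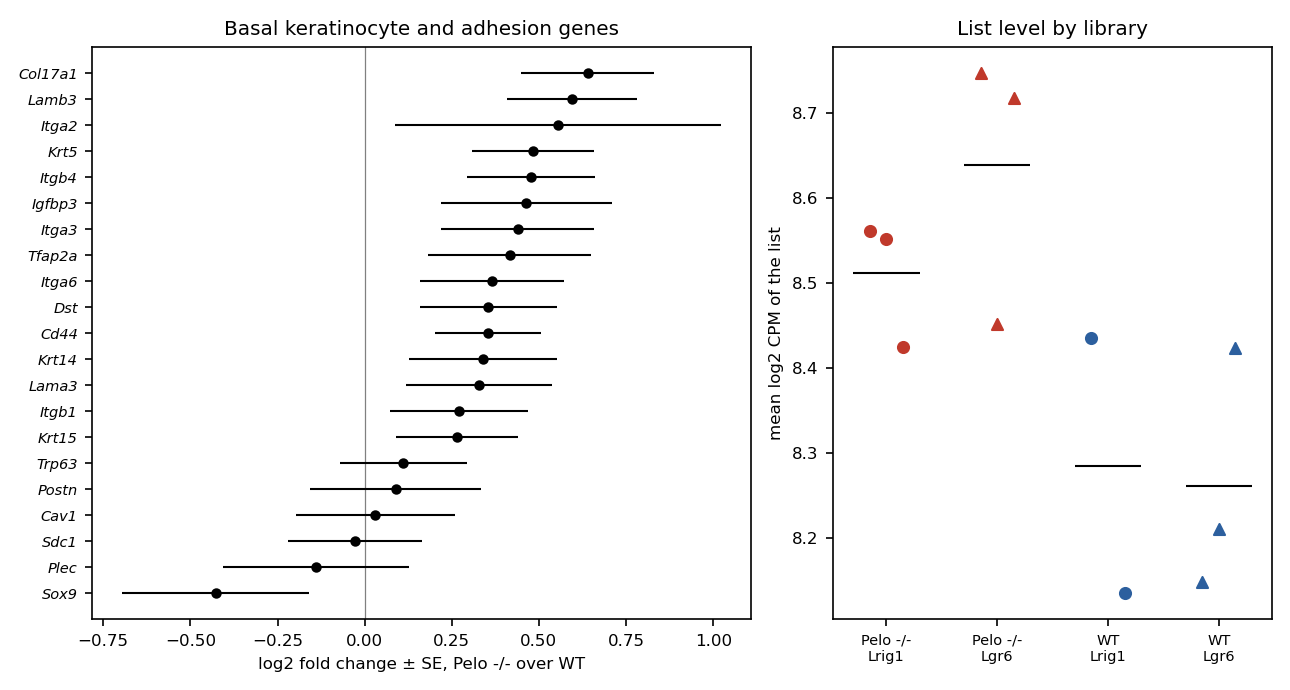
Left, log2 fold change with standard error (horizontal axis) of 21 of the 22 basal keratinocyte and adhesion genes in the common fit. Right, mean log2 CPM of the list (vertical axis, not starting at 0) in each library, red for Pelo -/- and blue for WT, circles for Lrig1 and triangles for Lgr6, with bars at group means; the Pelo -/- libraries run from 8.42 to 8.75 and the WT libraries from 8.13 to 8.43.

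Genes of the EGF receptor family, its ligands and its brakes had a median of 0.13, with 16 of 26 positive and 0 called. Only 11 of the 26 had the same sign in Lrig1 and Lgr6. Of all genes 51.0% did, and 54.0% of those at a mean log2 CPM of 3 or more. At an unadjusted p of 0.05 there were 4 of 26, all positive, against 4.88% of all genes and 5.61% at a mean log2 CPM of 3 or more. The list's median was 0.05 without Pelo -/- Lgr6 replicate 1. Spred2, an inhibitor of the Ras to ERK step, had 78.2, 48.3 and 72.5 CPM in Pelo -/- Lrig1 and 75.7, 78.1 and 53.1 in Pelo -/- Lgr6, against 43.5 and 45.5 in WT Lrig1 and 45.7, 31.8 and 44.05 in WT Lgr6 (0.68 ± 0.19, edgeR adjusted p = 0.919), with no overlap. Cbl, a ubiquitin ligase of the receptor, had 42.4, 75.3 and 53.5 CPM in Pelo -/- Lrig1 and 66.2, 57.1 and 63.3 in Pelo -/- Lgr6, against 31.7 and 38.4 in WT Lrig1 and 48.7, 42.6 and 39.1 in WT Lgr6 (0.60 ± 0.19, edgeR adjusted p = 0.965), separate within each population. Cblb was at 48.6 to 91.7 CPM in Pelo -/- and 29.98 to 63.5 CPM in WT libraries (0.58 ± 0.20) and Errfi1, which binds the kinase domain, at 151 to 246 CPM in Pelo -/- and 77.9 to 217 CPM in WT libraries (0.58 ± 0.24). The receptors themselves had values near 0, Egfr 0.10 ± 0.19, Erbb2 0.11 ± 0.23 and Erbb3 -0.07 ± 0.20. The ligand Nrg1 was at 6.94, 2.92 and 13.6 CPM in Pelo -/- Lrig1, 1.46, 0.824 and 0.681 in Pelo -/- Lgr6, 1.65 and 4.06 in WT Lrig1 and 6.25, 7.55 and 5.43 in WT Lgr6. The inhibitor Spry1 had 0.54 ± 0.27 and the ERK phosphatase Dusp6 0.28 ± 0.29.

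Histocompatibility and antigen presentation genes had a negative median of -0.33, with 4 of 25 positive, 21 negative and 0 called by edgeR. At an unadjusted p of 0.05 there were 5, all negative, 5 of 25 against 4.88% of all genes. H2-Ab1, a class II chain, had 3.79, 2.65 and 2.01 CPM in Pelo -/- Lrig1 and 0.925, 1.79 and 4.23 in Pelo -/- Lgr6, against 5.83 and 6.903 in WT Lrig1 and 8.29, 16.6 and 7.45 in WT Lgr6 (-1.76 ± 0.50, edgeR adjusted p = 0.919, DESeq2 adjusted p = 0.0242), and every Pelo -/- library was below every WT library. The invariant chain gene Cd74 had 49.03, 94.2 and 59.5 CPM in Pelo -/- Lrig1 and 26.98, 29.9 and 32.2 in Pelo -/- Lgr6, against 27.8 and 109 in WT Lrig1 and 263, 87.7 and 106 in WT Lgr6 (-1.38 ± 0.50, edgeR adjusted p = 0.965). For Cd74 the genotypes were apart in Lgr6 cells and overlapped in Lrig1 cells, and the same held for the immunoproteasome gene Psmb10 (-1.04 ± 0.40). The list's median was -0.07 in Lrig1 and -0.62 in Lgr6, and -0.14 in the common fit without WT Lgr6 replicate 3. The most abundant members were the class I light chain gene B2m at -0.43 ± 0.27 and the class I gene H2-K1 at 0.11 ± 0.16. Reads of the closely related H2 genes can be shared between them.

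Langerhans cell and macrophage markers, a list that also holds Cd74, had a negative median too. Of 15 tested of 20, 4 were positive and 11 negative, with a median of -0.34. By population the median was -0.003 in Lrig1 and -1.08 in Lgr6. The summed level of the list was 130.2 to 225 CPM in Pelo -/- and 147 to 367 CPM in WT libraries. None of the 20 had 0 counts in all libraries, although Lyz2, C1qa, C1qb, C1qc and Cd86 were below the filter on low counts. The Langerhans cell gene Cd207 was at 0.274, 2.097 and 0.346 CPM in Pelo -/- Lrig1, 0.195, 1.74 and 0.0972 in Pelo -/- Lgr6, 2.12 and 0.173 in WT Lrig1 and 4.07, 1.13 and 1.84 in WT Lgr6. That sum includes Epcam, which keratinocytes also express (80.3 to 109 CPM in Pelo -/- and 68.9 to 158 CPM in WT libraries). The part of such cells in the histocompatibility values was not tested, and in bulk libraries fewer cells of a type and less RNA per cell cannot be told apart. Interferon response genes had a median of -0.09, 0.49 in Lrig1 and -0.41 in Lgr6, so the population medians lay on opposite sides of 0. Oas3, an antiviral sensor, had 0.776, 4.19 and 2.701 CPM in Pelo -/- Lrig1 and 2.44, 5.04 and 7.05 in Pelo -/- Lgr6, against 0.9404 and 0.173 in WT Lrig1 and 1.04, 1.39 and 0.526 in WT Lgr6 (2.25 ± 0.68, edgeR adjusted p = 0.938, DESeq2 adjusted p = 0.0278).

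Follicle identity genes had medians slightly below that of all genes. Of 30 tested upper follicle, isthmus and sebaceous gland genes 0 were called, 17 were negative and 6 were negative at an unadjusted p of 0.05, against 4.88% of all genes. The median was -0.21, and it was -0.54 without Pelo -/- Lgr6 replicate 3 and -0.10 without WT Lrig1 replicate 2. By population the median was -0.35 in Lrig1 and -0.08 in Lgr6, where all genes had medians of 0.03 and -0.07. Sostdc1, an inhibitor of BMP and Wnt signals, had 129.7, 142 and 152 CPM in Pelo -/- Lrig1 and 19.1, 39.2 and 44.6 in Pelo -/- Lgr6, against 169 and 223 in WT Lrig1 and 45.6, 185 and 62.9 in WT Lgr6 (-1.06 ± 0.35, edgeR adjusted p = 0.965), separate within each population. Its fold change was -0.57 without WT Lgr6 replicate 2. The defensin gene Defb6 was at 68.7 to 170.2 CPM in Pelo -/- and 108 to 413 CPM in WT libraries (-0.83 ± 0.35). The follicle keratin Krt17 had 102, 163 and 190.2 CPM in Pelo -/- Lrig1 and 107, 72.4 and 61.7 in Pelo -/- Lgr6, against 131 and 271 in WT Lrig1 and 39.1, 1111 and 138 in WT Lgr6 (-1.57 ± 0.69), where WT Lgr6 replicate 2 alone was far above the others and the fold change without it was -0.28. Of 40 bulge and germ genes 24 were negative with a median of -0.09, turning to 0.04 without that library. The heparin-binding growth factor gene Ptn was at 116 to 250.3 CPM in Pelo -/- and 201 to 315 CPM in WT libraries (-0.45 ± 0.18) and separate within each population, and Cd34, a surface marker of bulge cells, was at 20.8, 9.71 and 9.63 CPM in Pelo -/- Lrig1, 4.58, 0.727 and 0.146 in Pelo -/- Lgr6, 22.2 and 39.8 in WT Lrig1 and 3.17, 27.7 and 8.42 in WT Lgr6 (-2.13 ± 0.72, and -1.44 without WT Lgr6 replicate 2). The log2 fold change of Lgr5 itself was -1.91 ± 1.12 with WT Lgr6 replicate 2 and -0.17 without it.

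Wound and stress keratinocyte genes had a median of -0.33, with 21 of 33 tested members negative and 0 called by edgeR. By population that median was 0.03 in Lrig1 and -0.41 in Lgr6. WT Lgr6 replicate 2 was far above the rest for Sprr1b, at 0, 0 and 0 CPM in Pelo -/- Lrig1, 1.51, 0 and 0.0486 in Pelo -/- Lgr6, 0 and 0.0431 in WT Lrig1 and 0.805, 44.5 and 0.0877 in WT Lgr6, and for Krt6b, at 0.502, 3.37 and 0.554 CPM in Pelo -/- Lrig1, 2.87, 0.436 and 0.243 in Pelo -/- Lgr6, 3.81 and 0.129 in WT Lrig1 and 0.474, 86.6 and 0.657 in WT Lgr6. The defensin gene Defb14 had 0, 0.938 and 0.0693 CPM in Pelo -/- Lrig1 and 0, 0 and 0 in Pelo -/- Lgr6, against 1.83 and 4.57 in WT Lrig1 and 0.0474, 2.44 and 0.964 in WT Lgr6 (-4.65 ± 1.30, edgeR adjusted p = 0.919, DESeq2 adjusted p = 0.0387). No Defb14 count was found in 4 of the 6 Pelo -/- libraries. The list's median was -0.12 without WT Lgr6 replicate 2 and -0.03 without WT Lrig1 replicate 2. Spinous and granular differentiation genes were split, 22 positive and 29 negative of 51, with a median of -0.10, at -0.34 in Lrig1 and 0.21 in Lgr6. Krt1 and Krt10, the keratins of the spinous layer, had 0.06 ± 0.34 and 0.06 ± 0.35. Tgm3, a transglutaminase of the cornified envelope, had 26.4, 25.3 and 22.2 CPM in Pelo -/- Lrig1 and 42.2, 9.94 and 16.8 in Pelo -/- Lgr6, against 15.5 and 15.9 in WT Lrig1 and 3.31, 8.02 and 8.02 in WT Lgr6 (1.29 ± 0.39, edgeR adjusted p = 0.938), and the protease inhibitor Spink5 -0.67 ± 0.29.

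Mitochondrial and proteasome genes had small negative medians over many members, with 0 called in each list. Of 76 nuclear genes of oxidative phosphorylation 55 were negative with a median of -0.19, led by Ndufb7 of complex I at 8.102 to 32.6 CPM in Pelo -/- and 16.4 to 49.6 CPM in WT libraries (-0.86 ± 0.32, edgeR adjusted p = 0.973) and the ATP synthase gene Atp5o (-0.45 ± 0.20). Of 75 mitochondrial ribosomal protein genes 54 were negative with a median of -0.16, and of 43 proteasome genes 35 with a median of -0.18. By population the proteasome median was -0.27 in Lrig1 and -0.01 in Lgr6, and 21 of 43 members had the same sign in both. For mitochondrial ribosomal proteins it was -0.22 in Lrig1 and -0.10 in Lgr6, with the same sign for 33 of 75. For oxidative phosphorylation it was -0.23 in Lrig1 and -0.13 in Lgr6, with the same sign for 44 of 76. At an unadjusted p of 0.05 these lists held 3.95%, 5.33% and 4.65%, near the 4.88% of all genes. Their medians shrank to -0.06 for oxidative phosphorylation without WT Lgr6 replicate 3, and to -0.04 and -0.05 for the other lists without WT Lrig1 replicate 2. The mitochondrial genome had a median of -0.02.

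Stress, cell cycle and signalling lists had medians between -0.08 and 0.05, and edgeR called no member. The integrated stress and unfolded protein response had 24 positive and 19 negative of 43 and a median of 0.03. Ddit3, the transcription factor CHOP, was at 3.404 to 8.901 CPM in Pelo -/- and 6.25 to 25.5 CPM in WT libraries (-1.05 ± 0.39), and the lipoprotein receptor gene Vldlr at 6.23 to 14.7 CPM in Pelo -/- and 1.22 to 7.804 CPM in WT libraries (1.52 ± 0.52). Heat shock genes had a median of 0.02, with the chaperone gene Hspa1b at 0.57 ± 0.23 and Hsp90 cofactor Chordc1 at -0.67 ± 0.23. For p53 targets and apoptosis the median was 0.01, with Ccng1 at -0.55 ± 0.23. S phase genes split evenly, 21 positive and 22 negative, with Mcm6 at 0.29 ± 0.17, Pcna at -0.02 ± 0.17 and the polymerase delta subunit gene Pold2 at 0.346 to 4.87 CPM in Pelo -/- and 2.398 to 13.3 CPM in WT libraries (-2.03 ± 0.62, edgeR adjusted p = 0.938). Of 43 G2 and mitosis genes 28 were negative with a median of -0.08, and Top2a had -0.08 ± 0.20. Wnt pathway genes split 23 to 23, with 3 positive at an unadjusted p of 0.05 (6.52%, near the 4.88% of all genes), the ligands Wnt10a (0.69 ± 0.25) and Wnt4 (0.63 ± 0.24) and the receptor ligase Rnf43 (0.78 ± 0.32). AP-1 and immediate early genes had a median of 0.05, and by population the list's median was -0.20 in Lrig1 and 0.45 in Lgr6. In the common fit Fos had 0.02 ± 0.42 and Dusp1 0.05 ± 0.32.

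The remaining lists held no called gene in edgeR either. NRF2 targets and oxidative stress genes had a median of -0.17, 21 negative of 32, with the ferritin heavy chain gene Fth1 at 0.47 ± 0.17. Cholesterol and fatty acid synthesis had a median of -0.08 (22 negative of 37), autophagy and lysosome -0.02 (23 negative of 44) and the Notch pathway -0.01 (19 negative of 35). Markers of other cells the gate could hold were low in sum. T cell markers summed to 48.0 to 125 CPM in Pelo -/- and 51.1 to 126 CPM in WT libraries, and fibroblast markers to 78.0 to 120.3 and 91.0 to 119 CPM. Melanocyte markers summed to 13.03 to 31.9 CPM in Pelo -/- and 11.9 to 42.6 CPM in WT libraries, endothelial markers to 6.37 to 18.1 and 6.13 to 16.4 CPM. Merkel cell and neural markers summed to 21.6 to 65.9 CPM in Pelo -/- and 28.7 to 50.5 CPM in WT libraries, and blood, muscle and fat markers to 6.66 to 26.3 and 12.4 to 17.8 CPM. Their medians were 0.05, -0.17, -0.66, -0.09, -0.45 and -0.16 on the log2 scale, in that order, and no marker of these lists was at 0 in all 11 libraries. These medians moved with single libraries. Without WT Lgr6 replicate 2 the melanocyte median was -0.07 and the Merkel cell and neural median -0.07. Without WT Lgr6 replicate 1 the T cell median was 0.48, and without Pelo -/- Lgr6 replicate 3 the fibroblast median was 0.09. Without WT Lrig1 replicate 1 the endothelial median was 0.32 and that of blood, muscle and fat 0.21.

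**Figure D5:**
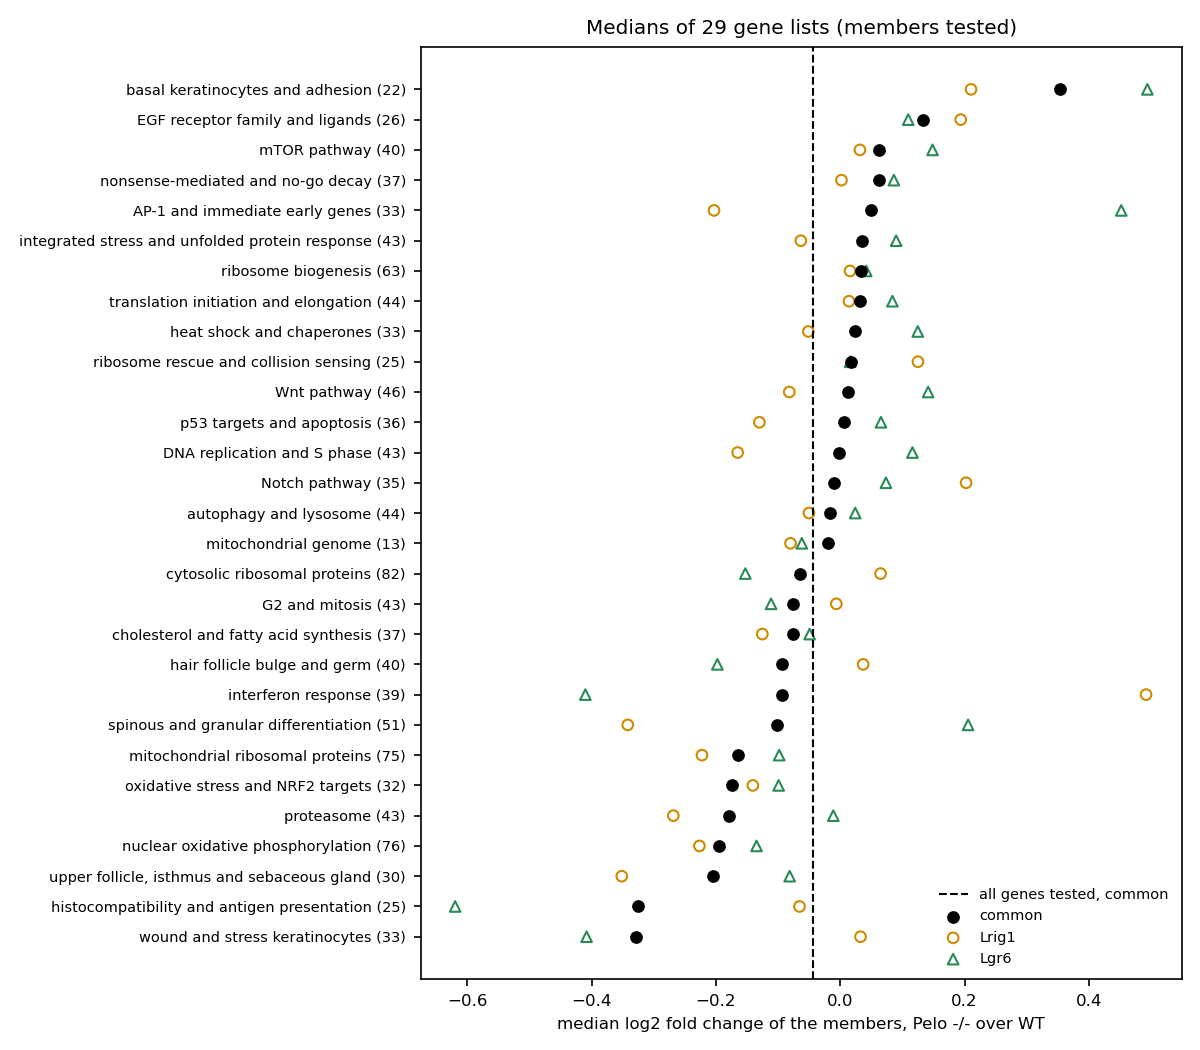
Median log2 fold change (horizontal axis) of the members of 29 process lists, with the number of tested members in brackets; black points are the common fit, open circles Lrig1 and open triangles Lgr6, and the dashed line is the median of all genes in the common fit, -0.04. Basal keratinocyte and adhesion genes are at the top with 0.35, and histocompatibility and wound genes at the bottom with -0.33 each.

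Set beside the Lgr5 population, whose libraries entered neither the common fit nor the choice of these genes, 8 of the 10 genes above WT and 2 of the 10 below had the same sign in a fit of all 17 libraries. So 16 of the 20 were positive in Lgr5 cells, where 69.8% of the 9262 genes at a mean log2 CPM of 3 or more were positive too. edgeR called 0 of the 20 in Lgr5 cells and 0 for the difference between the Lrig1 and Lgr6 average and Lgr5. For Slc19a2 the Lgr5 value was -0.36 ± 0.81, for Uap1 0.75 ± 0.43 and for Sdr16c5 2.73 ± 1.27.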

How the data were processed

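The deposited values are whole-number read counts per gene, which the authors made with STAR on GRCm38 (also named mm10), per the submitters' processing notes, which also name edgeR. Neither these notes nor the labels name the counting tool, the strand setting or the annotation release. Libraries were full length, per the labels' protocols. Gene names were matched to GENCODE by identifier, 48058 of 48820, and the 762 unmatched held at most 0.157% of counts.

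From the counts, filterByExpr (minimum count 10, minimum total 15) kept 21141 genes. edgeR 4.0.16 (R 4.3.3) fitted population and genotype to 11 libraries with TMM scaling and a robust quasi-likelihood test, with Benjamini-Hochberg adjustment over all genes and calls under 0.05. The fit was tested on simulated data with a lower dispersion than the 0.40 of these libraries. That test therefore does not tell how many real differences the fit would find here. A second fit added the interaction. DESeq2 1.42.0 and limma-voom 3.58.1, RLE scaling, other filters, a replicate block, equal weights, all 17 libraries and leaving out each library were alternatives. Total counts were 13333497 to 28098841. Replicates differed by at least 45.1 chi-square per degree of freedom, so intervals reflect the spread between libraries and not counting alone.

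Named genes are, per direction, the 10 with the smallest p at a mean log2 CPM of 3 or more with the same sign in both populations; 4 members by p and 2 by level in each list; 3 per direction by interaction p; and Pelo, Itga1, Lrig1, Lgr6 and Lgr5. The members and lists were chosen with earlier results of these data known. The labels do not say that replicates are separate animals, so p-values measure the spread between these libraries. No library pair agreed within sampling noise. WT Lrig1 has 2 libraries here; the Lgr5 libraries entered only the 17-library fit. No sequences are shown, and some members of the gene sets are not reported here.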

Additional observations from a re-analysis of the deposited data

Results flagged for a closer look

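Of 124 sets of values in which the libraries of a genotype were compared, 7 held a library far from the others, where chance alone gives about 1 in 20. All 7 were sets of Pelo -/- libraries, and WT Lgr6 replicate 2 was not flagged in any set. Sec24d was at 5.51 log2 CPM in Pelo -/- Lgr6 replicate 3, with the other 5 Pelo -/- libraries between 4.51 and 4.83. Stard5 was at 5.01 log2 CPM in Pelo -/- Lgr6 replicate 2, against 5.50 to 5.73 in the other Pelo -/- libraries. That library also had the lowest mean for the mitochondrial genome among Pelo -/- libraries, 10.15 log2 CPM against 10.87 to 11.04, and the highest for Merkel cell and neural markers, 0.28 against -1.02 to -0.64. The p53 target list averaged 4.47 log2 CPM in Pelo -/- Lrig1 replicate 2, against 4.06 to 4.21. The EGF receptor family list averaged 3.92 log2 CPM in Pelo -/- Lgr6 replicate 1, against 3.41 to 3.59. Fibroblast markers averaged -0.91 log2 CPM in Pelo -/- Lgr6 replicate 3, against 0.03 to 0.43.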

How the results depend on the processing

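The count of genes with a common difference was 0 in edgeR except with no filter on low counts, where 96 of 45596 were called (0.211%, 26 above WT and 70 below), and it was 55 in DESeq2. The count for a difference between populations was 62 with no filter and 82 in DESeq2, and lists with a called member were 0 in the main fit, 6 with no filter and 3 in DESeq2 (H2-Ab1, Oas3 and Defb14). The cause was not tested. Without single libraries the likeness of both populations (Spearman correlation) ran from -0.0673 to 0.203. Itga1 ran from -1.86 without WT Lrig1 replicate 2 to 0.12 without WT Lgr6 replicate 3. All 20 named genes kept their direction in 20 settings, which their choice by p in these same libraries favours. Of 36 list medians 10 kept their sign. In 22 pairs of a gene and a setting, the gene passed a threshold that it missed in the main fit. Scaling by RLE or total counts left 117 and 115 separate genes above WT and 16 and 26 below at a mean log2 CPM of 3 or more, an alternative chosen after seeing the data. Itga1, Enpp5, Pelo and the endothelial and blood lists have no value where low counts were filtered at a mean CPM of 5.

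With the replicate number as a block the common fit called 0 genes, with 1117 at an unadjusted p under 0.05. Same-numbered libraries had correlations of deviations of -0.01 and 0.08 in Lrig1 and 0.09, 0.16 and 0.11 in Lgr6, and 4 of 5 correlated best with their own number. Correlations this small cannot settle whether the numbers pair the samples.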
